A study of Mus musculus with 10 samples.

Results

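The adrenergic receptors are the cell-surface receptors for noradrenaline and adrenaline. Of the genes in the RNA-Seq table, which gives transcript abundance scaled by length and library total (TPM), 8 that encode members of this family are described here, chosen by gene symbol: *Adra1a*, *Adra1b* and *Adra1d* (α1), *Adra2a*, *Adra2b* and *Adra2c* (α2), and *Adrb1* and *Adrb3* (β). The table held 26228 genes with a TPM above 0 in at least 1 aorta, and all 8 receptors were among them. RNA-Seq covered whole thoracic aortas of 3 control mice (Prdm16f/f, with no Cre in the labels and headed WT in the table) and 3 Prdm16SMKO mice (Prdm16f/f, SMMHC-CreERT2). In both groups *Prdm16* is floxed, and the Cre, driven by the promoter of *Myh11* and active after tamoxifen, removes it from cells that express *Myh11*, mainly smooth muscle, so that other cells of the aortic wall keep the gene. The Cre transgene lies on the Y chromosome, so the knockout mice were male, on the C57BL/6J background. Their age at RNA-Seq, and whether the controls received tamoxifen, are not given in the sources used here. ChIP-Seq was done in another cell type, primary mouse vascular fibroblasts of wild-type genotype. A lentivirus brought in PRDM16 with a Flag tag, or vector alone, over 48 hours, and puromycin at 2 μg/mL then selected infected cells over 1 week. Peaks from 1 anti-Flag library per condition were used, so no peak value has a replicate.

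In vascular smooth muscle, α1 receptors couple through Gq/11 to phospholipase C, which releases calcium and leads to phosphorylation of the myosin light chain and contraction. α2 receptors couple through Gi/o to a lower cAMP level, sit on sympathetic nerve endings and endothelium as well as on muscle, and restrain noradrenaline release. β receptors couple through Gs to adenylyl cyclase, with *Adrb1* best known in the heart and *Adrb3* in adipocytes, where it drives lipolysis and heat production. Adventitial fat around the thoracic aorta of the mouse contains brown-type adipocytes.

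The PRDM16 peak list held a peak with its centre within 2 kb of a curated RefSeq transcription start site (TSS) at 3 of the 8 receptor genes, *Adra1d*, *Adrb1* and *Adrb3*, against 29.1% of 21000 protein-coding genes, or 43.7% of the 12499 protein-coding genes tested for expression in the aorta. In or within 50 kb of the gene, 4 of 8 receptors held a peak, with *Adra1b* added, against 58.3% of all protein-coding genes. Neither share stands out beside its background, and the vector list of 67 peaks held 0 within 50 kb of any receptor. The sequences around the summits, the points of highest enrichment, are shown because they place the peaks within the genes. They are read from GRCm38 on the strand of each gene, 5′ to 3′, with CpG dinucleotides in capitals.
Adra1d, 223 bases upstream of the TSS within the peak, chr2:131562498-131562720, reverse strand: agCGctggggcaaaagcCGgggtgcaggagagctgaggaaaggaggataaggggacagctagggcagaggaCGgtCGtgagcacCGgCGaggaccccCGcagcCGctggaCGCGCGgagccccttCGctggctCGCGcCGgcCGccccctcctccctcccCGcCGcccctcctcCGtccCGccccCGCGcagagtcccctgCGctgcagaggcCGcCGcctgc
Adrb1, 69 bases of the coding exon at the summit, chr19:56722372-56722440, forward strand: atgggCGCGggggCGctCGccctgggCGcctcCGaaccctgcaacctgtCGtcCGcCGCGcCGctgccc
Adrb3, 101 bases of coding exon around the summit, chr8:27227715-27227815, reverse strand: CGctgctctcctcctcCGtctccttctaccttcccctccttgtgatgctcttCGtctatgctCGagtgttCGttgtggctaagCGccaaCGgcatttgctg
Adra1b, 101 bases of intron around the summit, chr11:43889353-43889453, reverse strand: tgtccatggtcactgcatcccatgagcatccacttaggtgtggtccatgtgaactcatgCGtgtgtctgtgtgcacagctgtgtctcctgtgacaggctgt

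At *Adra1d*, which encodes the α1D receptor, the peak ran for 1603 bp, from chr2:131561118-131562720, and was the longest of those at the receptors. Its summit lay 42 bp upstream of the TSS at 131562497, inside the stretch printed above, while its centre lay 578 bp downstream, and 65.6% of its bases were coding. The fold enrichment over the background was 6.68, above 78.4% of all 11271 PRDM16 peaks, with a −log10 q of 8.95. The deposited fold and p correspond to 18 fragments at the summit over a background of 1.84, close to the median of 15 fragments over all peaks. That background was the commonest in the list, found at 61.1% of peaks. The upstream stretch is rich in CpG, with 25 in 223 bases and a GC content of 75.3%. A second peak lay 51150 bp downstream of the TSS, past the end of the gene, and the nearest TSS to it was that of *Smox*.

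At *Adrb1*, which encodes the β1 receptor in a single exon, there were 2 peaks within 2 kb of the TSS, and neither reached upstream of it. The first, chr19:56722233-56722758, had its summit 273 bp downstream in the coding sequence, with a fold enrichment of 4.92 from 13 fragments. The second, chr19:56723029-56723700, lay wholly in coding sequence, with a fold enrichment of 3.88 from 23 fragments over a higher background of 5.19. At *Adrb3*, which encodes the β3 receptor, the peak chr8:27227481-27227990 was also all coding sequence, with its centre 1853 bp downstream of the TSS, just inside the 2 kb window, and a fold enrichment of 4.92. The intronic peak of *Adra1b*, chr11:43889256-43889481, lay 11.9 kb downstream of the TSS of the longer transcript with a fold enrichment of 3.52, above only 5.94% of all peaks.

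These peaks differed in base composition. The promoter-proximal peaks at *Adra1d*, *Adrb1* and *Adrb3* had GC contents of 65.7% to 74.0% and 9.11 to 12.2 CpG per 100 bases, against medians of 63% and 6.32 over all peaks. The *Adra1b* intron peak had 51.3% GC and 0.885 CpG per 100 bases. The GC box GGGCGG, counted on both strands in the 201 bp around each summit, was in 4 of the 10 windows at the receptors, 3 times at *Adra1d*, once at the first *Adrb1* peak, once at a peak upstream of *Adrb1* and 3 times at a peak upstream of *Adrb3*, and 34.3% of all peaks held at least 1. For GATA factors the core AGATAA was searched, and for the cAMP response element TGACGTCA. Neither was in any of the 10 windows at the receptors, and they were in 4.01% and 0.204% of all windows. The E-box CACGTG was in 1 of these windows, at a peak centred at −31002 bp from the TSS of *Adrb3* that lay 263 bp from the TSS of *Eif4ebp1*, and in 3.37% of all windows. The nearest peaks to *Adra2b*, *Adra2a*, *Adra2c* and *Adra1a* lay 92.7, 100, 222 and 232 kb from the TSS. Of the 5 receptors in the RefSeq promoter table, which covers 250 bases upstream and 50 downstream of the start on GRCm38, *Adra1b* has 2 starts. Over the 250 upstream bases of these 6 promoters GC ran from 41.6% to 74.0%, with a median of 66.8%, against 52.4% over the same bases of all promoters.

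**Figure D1:**
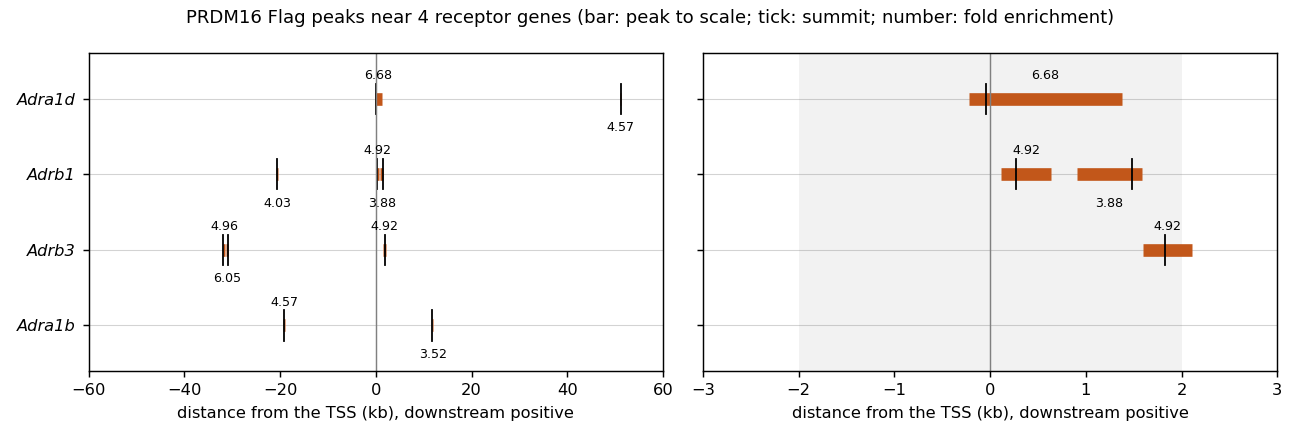
PRDM16 Flag peaks at 4 receptor genes by distance from the TSS in kb, on a wide scale (left) and a near scale with the 2 kb window shaded (right). Bars are peaks to scale, ticks are summits and numbers are fold enrichments. Only the *Adra1d* peak crosses the TSS, with a fold enrichment of 6.68, while the peaks within 2 kb at *Adrb1* and *Adrb3* lie downstream of it. On the wide scale, *Adrb1* also has an upstream peak centred at −20638 bp. *Adrb3* has upstream peaks centred at −31002 bp (fold enrichment 6.05) and −31725 bp (4.96).

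*Prdm16* itself was measured at 56.07, 47.56 and 40.28 TPM in control aortas 1, 2 and 3 and at 23.31, 33.32 and 23.42 TPM in Prdm16SMKO aortas 1, 2 and 3. Every knockout value was lower than every control value, although the log2 fold change of −0.85 (standard error 0.18) had an adjusted *P* of 0.072 by limma. It passed 0.05 after median ratio rescaling (0.0239), after quantile normalization (0.0335) and with a brown adipocyte marker score as a covariate (0.0297), within a range of 0.0239 to 0.317 over 16 alternatives. Smooth muscle markers were abundant in every aorta, with *Acta2* (smooth muscle actin) at 6455 to 12433 TPM and *Tagln* (SM22α) at 3179 to 4643 TPM. The labelled tissue therefore carried its defining markers. TPM keep no sequencing depth, so the depth of each aorta is unknown here. The limma p-values set the group difference against the spread between aortas within groups, pooled over both groups and moderated across genes. The median log2 fold change over all 15668 genes tested was −0.12 as deposited and 0.00 after rescaling by median ratio, so a receptor with no difference relative to other genes would sit near −0.12.

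The 8 receptors spanned a wide range of levels. TPM are scaled by transcript length, so they can be set side by side between genes. *Adra1d* was the highest with a mean of 55.4 TPM over the 6 aortas, followed by *Adrb3* with 8.76 TPM and *Adra1b* with 2.37 TPM, and in all 6 aortas the levels of these 3 followed that order without overlap of their ranges. *Adra1b*, *Adra1a* (1.64 TPM), *Adrb1* (1.23 TPM), *Adra2a* (1.19 TPM) and *Adra2c* (0.463 TPM) followed, and each neighbouring pair of these 5 overlapped. *Adra2b* came last with 0.0683 TPM and was listed at 0 in 2 of 6 aortas. Among the genes tested, the control mean of *Adra1d* was above that of 91.4% of genes, that of *Adrb3* above 50.7%, and that of *Adra2a* above 8.94%.

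Among the α1 receptors, the study asked whether loss of PRDM16 in smooth muscle alters the receptors through which noradrenaline contracts the vessel. *Adra1d* (ENSMUSG00000027335), the main α1 receptor of these aortas, was at 93.20, 69.59 and 54.12 TPM in control aortas 1, 2 and 3 and at 36.71, 49.22 and 29.51 TPM in Prdm16SMKO aortas 1, 2 and 3. The groups did not overlap, although the lowest control (54.12) and the highest knockout (49.22) lay close together. The knockout mean was 53.2% of the control mean, with a log2 fold change of −0.90 (standard error 0.23, 95% interval −1.43 to −0.38) and an adjusted *P* of 0.13 by limma, so *Adra1d* did not pass the threshold of 0.05. On simulated data the same fit recovered only 41 of 100 genes changed 2-fold. The paper, by its own RNA-Seq analysis, lists *Adra1d* among the genes significantly lower in Prdm16SMKO aortas. By qPCR in abdominal aorta it reports lower *Adra1d* and *Adra1a*. It also reports lower *Adra1d* after *Prdm16* knockdown in cultured smooth muscle cells, PRDM16 binding at its promoter, and activation of that promoter in a reporter assay. In thoracic aorta it reports that the daily pattern of *Adra1d* was almost lost in knockouts. The paper does not state the time of day at which the RNA-Seq aortas were taken. Over all genes tested, every knockout aorta was lower than every control aorta for 14.9% of genes, so the lack of overlap alone is a common pattern in this table.

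*Adra1a* (α1A, known for contraction of resistance vessels) was at 0.76, 2.90 and 1.66 TPM in controls 1, 2 and 3 and at 1.07, 0.59 and 2.84 TPM in Prdm16SMKO 1, 2 and 3. The groups overlapped over nearly their whole range, and the log2 fold change of −0.31 had an interval of −1.69 to 1.07. Its sign turned, to 0.12 without control aorta 2 and to 0.16 without Prdm16SMKO aorta 2. *Adra1b* (α1B) was at 3.27, 1.84 and 1.58 TPM in controls and at 2.38, 2.7 and 2.45 TPM in knockouts. All 3 knockout values lay within the control range, with a log2 fold change of 0.23 (interval −0.45 to 0.91). *Adra1d* made up 93.6% to 95.9% of the summed α1 TPM in controls and 84.8% to 93.7% in knockouts.

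Ratios between receptors within an aorta do not depend on a constant factor per aorta, apart from the pseudocount of 0.1, although quantile normalization moved them by up to 0.1 (log2). The log2 ratio of *Adra1d* to *Adra1b* was 4.79, 5.17 and 5.01 in controls 1, 2 and 3 and 3.89, 4.14 and 3.54 in knockouts 1, 2 and 3. The groups did not overlap, with a difference of −1.13, and the exact permutation test (2-sided) gave *P* = 0.1, the smallest value that 3 against 3 aortas allow. The log2 ratio of *Adra1d* to the mean of 8 smooth muscle markers was also lower in every knockout aorta, from −3.96 to −3.49 in controls and from −4.53 to −4.16 in knockouts (difference −0.69, *P* = 0.1 by the same exact permutation test). By contrast, the log2 ratio of *Adra1d* to *Adra1a* overlapped between groups (difference −0.59, exact permutation *P* = 0.7), as did that of *Adra1a* to *Adra1b* (−0.54, exact permutation *P* = 0.7). Both moved with single aortas. The first was 0.08 without control aorta 1, 0.15 without Prdm16SMKO aorta 3 and −1.26 without Prdm16SMKO aorta 2, and the second ran from −1.31 (without control aorta 1) to −0.01 (without control aorta 2 or Prdm16SMKO aorta 2).

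The α2 receptors were low in all aortas. *Adra2a* (α2A, the main presynaptic autoreceptor) was at 1.31, 0.50 and 0.60 TPM in controls 1, 2 and 3 and at 3.87, 0.17 and 0.69 TPM in knockouts 1, 2 and 3. Both the highest and the lowest value were in the knockout group, and the log2 fold change of 0.17 (interval −1.84 to 2.18) turned to −0.86 without Prdm16SMKO aorta 1 and to −0.07 without control aorta 2. Prdm16SMKO aorta 1, with the highest *Adra2a*, also had the highest levels of the endothelial markers *Pecam1* (70.38 TPM against 28.04 to 59.28 in the others) and *Vwf* (32.71 TPM against 8.78 to 19.07). The other endothelial markers were divided, with *Egfl7* and *Tie1* highest in the same aorta but *Kdr* (5.15 TPM, second lowest of 6) and *Cdh5* (18.23 TPM, below 27.09 in control aorta 2 and 22.66 in Prdm16SMKO aorta 3) not. The endothelial score is the mean over the 6 endothelial markers of log2(TPM + 0.1) relative to the 6 aortas. Its relation to *Adra2a* gave a Pearson's r of 0.53 (exact permutation *P* = 0.3, adjusted 0.44). Spearman's rho was 0.49 (exact permutation *P* = 0.36, adjusted 0.56). The r was 0.91 without the 2 aortas farthest from the median score, but it was negative within controls and positive within knockouts. Beyond this relation, the part of endothelial cells in the *Adra2a* value was not tested.

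*Adra2c* (α2C) was at 0.38, 0.32 and 0.36 TPM in controls and at 0.75, 0.58 and 0.39 TPM in knockouts, and *Adra2b* (α2B) was at 0, 0.03 and 0.03 TPM and at 0.08, 0 and 0.27 TPM. *Adra2c* was higher in every knockout aorta than in every control, by 0.39 against 0.38 TPM at the nearest pair. Over the genes tested, this pattern held for 4.08%. Both genes had a mean TPM under 0.5 and were not tested, and they are given as values only.

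Of the β receptors, *Adrb3* was at 6.23, 13.87 and 7.56 TPM in controls 1, 2 and 3 and at 7.66, 3.76 and 13.49 TPM in knockouts 1, 2 and 3. The groups overlapped over most of their range, with a log2 fold change of −0.24 (interval −1.25 to 0.76) that turned to 0.09 without control aorta 2 and to 0.23 without Prdm16SMKO aorta 2. *Adrb1* was at 1.1, 2.16 and 1.2 TPM in controls and at 0.81, 0.56 and 1.55 TPM in knockouts. Of the knockout aortas 2 were below every control, and the third lay within the control range, with a log2 fold change of −0.61 (interval −1.64 to 0.42).

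By limma, 0 of the 6 receptors tested had an adjusted *P* below 0.05, against 1.07% of all genes tested (168 of 15668, with 0.389% higher and 0.683% lower in the knockouts). Of the 6, 1, *Adra1d*, had an unadjusted *P* below 0.05, against 12.7% of all genes. The median log2 fold change of the 6 was −0.28, beside −0.12 over all genes. Apart from *Adra1d*, the 95% intervals of the receptors all included 0 and reached beyond a 2-fold difference in at least 1 direction for *Adra1a*, *Adra2a*, *Adrb1* and *Adrb3*, so these intervals include differences of that size.

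**Figure D2:**
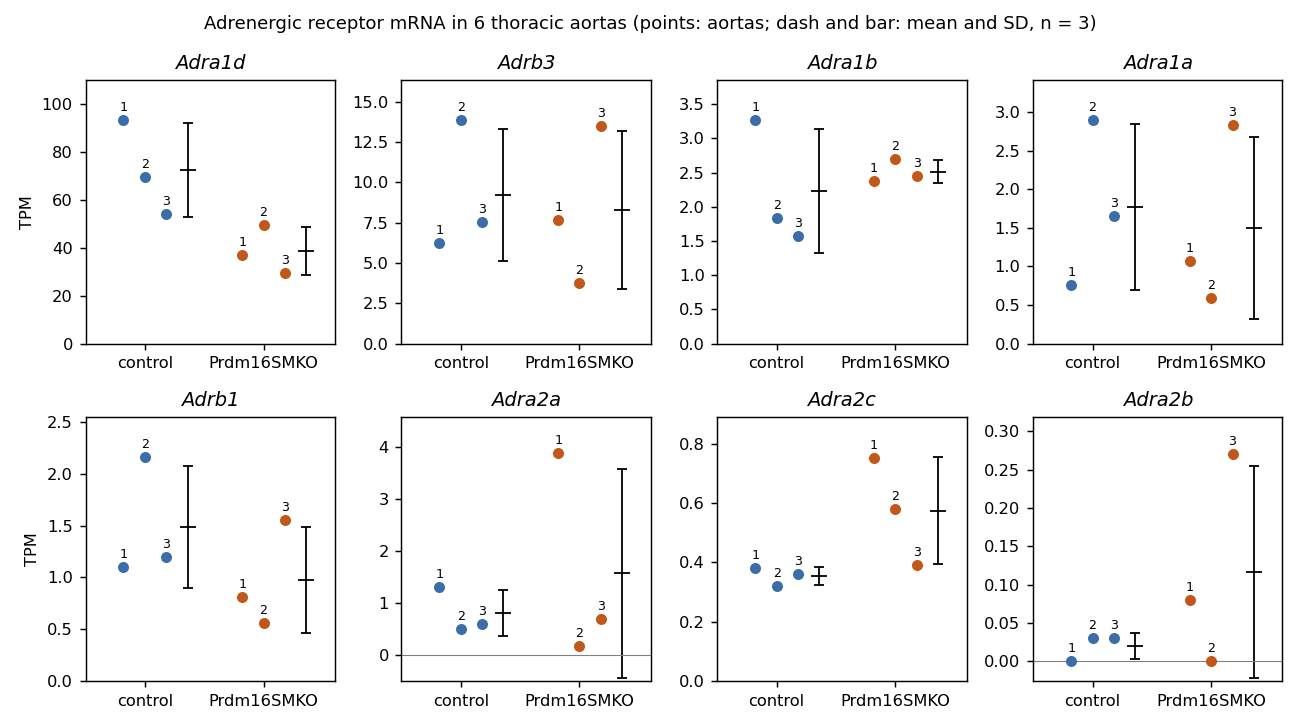
TPM of the 8 receptors in each aorta, by group, on a separate linear axis for each gene, with replicate numbers beside the points and the mean and SD of 3 aortas beside each group. *Adra1d* is lower in every Prdm16SMKO aorta, while *Adrb3*, *Adra1a* and *Adrb1* are highest in control aorta 2 and Prdm16SMKO aorta 3.

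**Figure D3:**
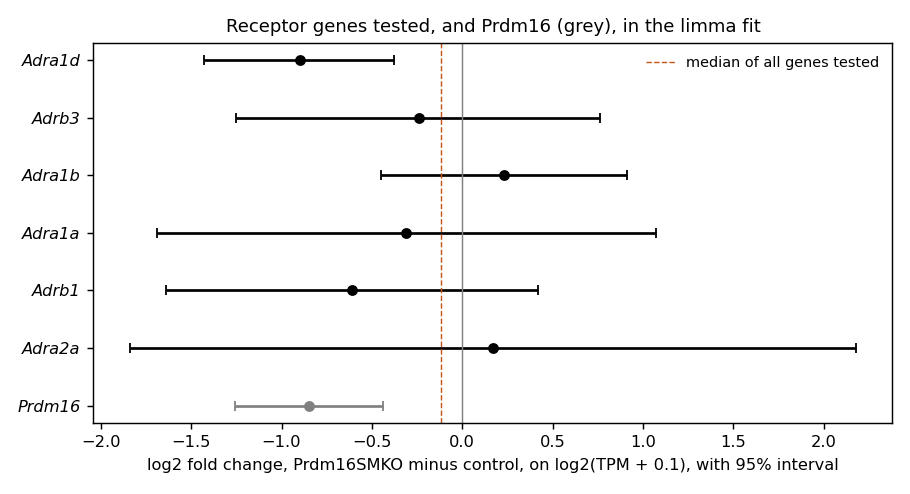
Log2 fold change of the 6 receptors tested and of *Prdm16*, Prdm16SMKO minus control, on log2(TPM + 0.1), with 95% intervals from limma. The interval of *Adra1d* lies between −1.43 and −0.38, and those of the other 5 receptors include 0. The dashed line is the median of all genes tested, −0.12.

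The aortas also differed in their content of other cell types, and in bulk tissue fewer cells of a type and less RNA per cell cannot be told apart. *Adrb3*, *Adra1a* and *Adrb1* were each highest in control aorta 2 and Prdm16SMKO aorta 3. Of the 6 brown adipocyte markers, *Ucp1*, *Cidea*, *Cox8b* and *Elovl3* were highest in the same aortas. *Dio2*, which activates thyroid hormone, was instead lower in every knockout aorta (9.88 to 13.33 TPM) than in every control (16.11 to 22.79 TPM), and *Ppargc1a*, a mitochondrial coactivator, had its lowest value (1.62 TPM) in control aorta 2. *Ucp1*, the uncoupling protein that marks brown fat, was at 15.34, 116.80 and 59.43 TPM in controls 1, 2 and 3 and at 30.50, 22.35 and 127.23 TPM in knockouts 1, 2 and 3, and *Cidea*, a lipid droplet protein of brown adipocytes, ranged from 48.00 to 251.14 TPM. The summed TPM of the 6 brown adipocyte markers ranged from 95.5 to 535 in controls and from 137 to 452 in knockouts, with 0 of 5 tested genes called and *Elovl3* below 1 TPM throughout. The summed TPM of the 6 adipocyte markers, led by *Fabp4* and *Cfd*, ranged from 637 to 2050 in controls and from 575 to 1130 in knockouts, with 0 of 6 called.

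Relations between the 6 tested receptors and the scores of 4 marker lists (24 relations over 6 aortas) were computed after the data were seen. *Adra1a* followed the brown adipocyte score with a Pearson's r of 0.96 (exact permutation *P* = 0.013, adjusted 0.17) and a Spearman's rho of 0.94 (exact permutation *P* = 0.017, adjusted 0.13), and r was 0.97 without the 2 aortas farthest from the median score. *Adrb3* ranked the aortas exactly as the adipocyte score did, with a rho of 1.00 (exact permutation *P* = 0.0028, the smallest that 6 aortas allow, adjusted 0.067) and an r of 0.85 (exact permutation *P* = 0.029, adjusted 0.17), which was 0.74 without the 2 farthest aortas. None of the 24 relations passed 0.05 after adjustment. Relative to the mean of the adipocyte markers, the log2 ratio of *Adrb3* differed by 0.01 between the groups (exact permutation *P* = 1).

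**Figure D4:**
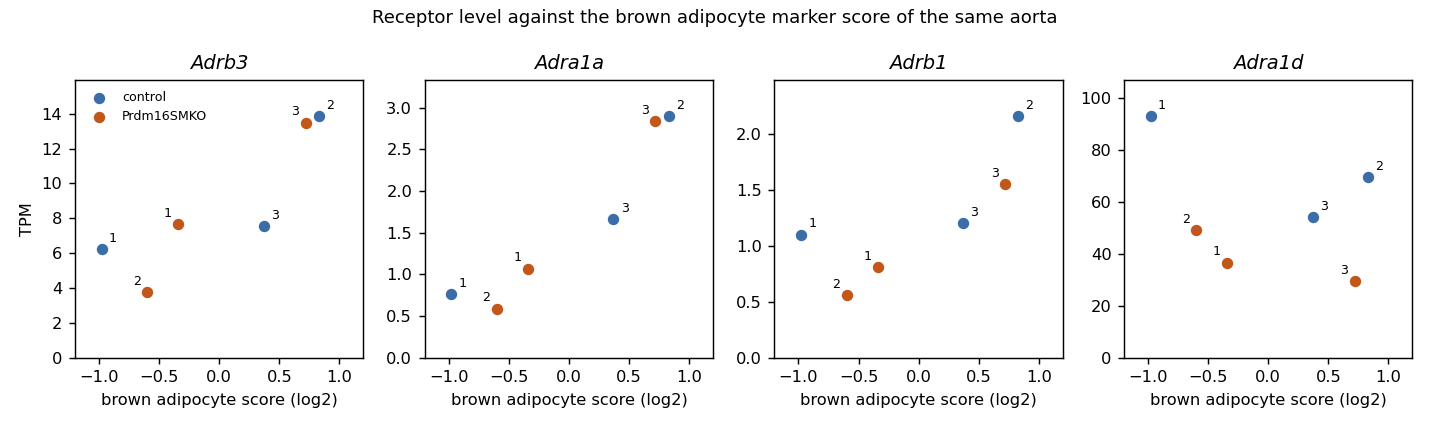
TPM of *Adrb3*, *Adra1a*, *Adrb1* and *Adra1d* in each aorta (linear axes) against the brown adipocyte score of that aorta, the mean over 5 markers of log2(TPM + 0.1) relative to the 6 aortas. Control aorta 2 and Prdm16SMKO aorta 3 have the highest scores, 0.83 and 0.72, and the highest *Adrb3*, *Adra1a* and *Adrb1*, whereas *Adra1d* is highest in control aorta 1, which has the lowest score.

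Over the 6 aortas *Adra1d* was weakly related to the adipocyte lists (r = −0.37 with the brown adipocyte score, exact permutation *P* = 0.45, adjusted 0.57, and rho = −0.26, exact permutation *P* = 0.66, adjusted 0.72), and r was −0.41 without the 2 aortas farthest from the median score. With the adipocyte score r over the 6 aortas was −0.03 (exact permutation *P* = 0.95, adjusted 0.95) and rho −0.20 (exact permutation *P* = 0.71, adjusted 0.74). It was −0.98 (r) without the 2 farthest aortas, control 2 and Prdm16SMKO 2. Within groups, *Adra1d* and this score had an r of −0.17 in controls and −0.92 in knockouts. With the brown adipocyte score as a covariate, an alternative added after the data were seen, its log2 fold change was −0.96 and its adjusted *P* by limma 0.0286, within a range of 0.0286 to 0.414 over the 16 alternatives tried. It did move with the smooth muscle list (r = 0.91, exact permutation *P* = 0.017, adjusted 0.17, and rho = 0.77, exact permutation *P* = 0.1, adjusted 0.27), although r was 0.51 without the 2 aortas farthest from the median score. The summed TPM of the 8 smooth muscle markers, led by *Acta2*, was 20800 to 24200 in controls and 13900 to 17900 in knockouts, with 0 of 8 called, and ranked the 6 aortas in the same order as *Adra1d*. The score of this list, in which each marker weighs the same, overlapped between the groups (difference −0.22, exact permutation *P* = 0.3). *Acta2* was at 11024 to 12433 TPM in controls and 6455 to 8230 TPM in knockouts (a log2 fold change of −0.63 with a limma adjusted *P* of 0.072), and *Des* (desmin) differed the other way (0.45, adjusted *P* 0.23). The part of smooth muscle content in the *Adra1d* difference was not tested. The paper reports that *Prdm16* knockdown lowered *Acta2* and *Tagln* mRNA in cultured smooth muscle cells. The ratio to the marker mean given above therefore cannot separate smooth muscle content from marker level per cell.

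The 5 genes whose levels were most like *Adra1d* over the 6 aortas, among 9687 genes with a mean of at least 5 TPM, were *Plcb4*, *Aldh2*, *Pik3r3*, *BC017158* and *Morf4l1*, with Pearson's r from 0.9965 to 0.9990. All share the order of the aortas with *Adra1d*, but their log2 fold changes ran from −0.44 to −0.30, less than that of *Adra1d*, and none passed the threshold (adjusted *P* from 0.23 to 0.33 by limma). *Plcb4* encodes a phospholipase C that Gq activates and *Aldh2* a mitochondrial aldehyde dehydrogenase. The paper, by its own RNA-Seq analysis, lists both among the significantly lower genes. *Prdm16* correlated with *Adra1d* at r = 0.98, and 210 genes correlated more strongly. With 6 aortas in 2 groups these values describe the libraries, and every gene compared shares the composition and scaling of each library.

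Other marker lists did not separate the groups, with 1 exception. Summed TPM was 115 to 147 in controls and 84.4 to 189 in knockouts for 6 endothelial markers, 926 to 1170 and 788 to 1130 for 6 fibroblast markers, and 5.4 to 7.92 and 6.47 to 10.5 for 5 Schwann cell markers, none with a called gene. The 5 leukocyte markers summed to 4.75 to 7.11 and 4.69 to 6.52, and the 4 skeletal muscle markers to 7.28 to 9.49 and 3.3 to 8.38, again with none called and with *Myh4* listed at 0 in 5 of 6 aortas. The 4 cardiomyocyte markers summed to 18.9 to 37.8 in controls and 490 to 508 in knockouts. That difference came from *Tnnt2*, cardiac troponin T, at 16.81 to 33.76 TPM in controls and 483.75 to 502.88 TPM in knockouts (log2 fold change 4.42, adjusted *P* 0.00015 by limma), while *Myh6*, cardiac myosin, stayed between 1.76 and 8.68 TPM in all aortas and *Nppa* below 1 TPM.

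The signalling machinery downstream of the receptors was described with 64 genes in 6 lists, of which 57 were tested. By limma, 0 of 57 were called, against 1.07% of all genes tested, and 10 had an unadjusted *P* below 0.05, against 12.7%. The paper's own RNA-Seq analysis differs here. It lists *Plcb4*, *Grk5* and *Ppp1cb* among the significantly lower genes with a PRDM16 promoter peak. Every knockout aorta was below every control for 13 of the 57 and above for 4, against 14.9% and 4.08% of all genes as deposited. After rescaling by median ratio these counts were 10 and 8, against 10.7% and 11%. The median log2 fold change of the list genes was −0.12 as deposited and 0.00 after rescaling, equal to that of all genes.

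In the Gq/11 arm, which carries the α1 signal, 0 of 12 tested genes were called and the median log2 fold change was −0.11. *Plcb4*, the most abundant of them, was at 346.20, 304.05 and 273.43 TPM in controls and 237.08, 268.47 and 216.23 TPM in knockouts (a log2 fold change of −0.35 with a limma adjusted *P* of 0.29), and *Itpr1*, the IP3 receptor that releases calcium, at 157.07 to 194.80 and 119.19 to 146.32 TPM (−0.33, adjusted *P* 0.33). Of the 12, 4 were lower in every knockout aorta, these and *Plcb1*, another phospholipase C (−0.40), and *Gnaq*, the Gq protein itself (−0.27). This pattern held for 14.9% of all genes tested as deposited, and for 10.7% after median ratio rescaling. *Gna11*, the other G protein of this class (−0.12), and *Plcb3* (−0.10) overlapped between groups. In the list for myosin light chain phosphorylation, 0 of 14 were called with a median of −0.16. The myosin light chains *Myl6* (−0.16) and *Myl9* (−0.22), the kinase *Mylk* (−0.14) and the phosphatase subunit *Ppp1r12a* (0.02) overlapped between groups. Of the 14, 3 were lower in every knockout aorta, beside the same 14.9% of all genes. They were the phosphatase subunit *Ppp1cb* (−0.26), the guanine nucleotide exchange factor *Arhgef11* (−0.37) and the small GTPase *Rhoa* (−0.16).

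In the Gi/o arm, which carries the α2 signal, 0 of 5 were called with a median of −0.09. *Gnai2* (−0.09) and *Gnai1* (−0.12) overlapped between groups, while *Gnai3* was lower in every knockout aorta (−0.19) and *Gnao1* higher in every knockout aorta, at 32.12 to 40.20 TPM in controls and 40.63 to 54.86 TPM in knockouts (0.37, adjusted *P* 0.36 by limma). *Gnai3* was close to the −0.12 of all genes. Over all genes tested as deposited, every knockout aorta was lower than every control for 14.9% and higher for 4.08%.

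In the Gs and cAMP arm, which carries the β signal, 0 of 14 were called with a median of −0.12. The G protein gene *Gnas* (−0.18), the cyclase gene *Adcy5* (−0.29) and the protein kinase A subunit genes *Prkar1a* (−0.24) and *Prkar2a* (−0.15) were the most abundant. *Adcy1*, a calcium-stimulated adenylyl cyclase, had the largest difference of all the list genes, at 0.52, 0.40 and 0.44 TPM in controls 1, 2 and 3 and 1.76, 2.23 and 1.64 TPM in knockouts 1, 2 and 3. All 3 knockout values lay far above the controls, with a log2 fold change of 1.83 (standard error 0.37) and an adjusted *P* of 0.06 by limma. At this low level the pseudocount sets the size, and with a pseudocount of 1 the log2 fold change was 0.98. *Adcy1* passed 0.05 after median ratio rescaling (adjusted *P* 0.0209), after quantile normalization (0.0256), without mitochondrial genes (0.0383) and without a mean-variance trend (0.0217), and its adjusted *P* by limma ran from 0.0209 to 0.219 over the 16 alternatives tried. *Adcy3*, another cyclase gene, was at 18.85 to 20.54 TPM in controls and 14.68 to 15.45 TPM in knockouts, a narrow spread within each group, with a log2 fold change of −0.40 and an adjusted *P* of 0.21.

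Of the 6 genes for receptor desensitization, 0 were called, with a median of −0.14. The receptor kinases *Grk5* and *Grk3*, which phosphorylate activated receptors, were lower in every knockout aorta, as were 14.9% of all genes tested. *Grk5* was at 15.78 to 18.95 TPM in controls and 11.09 to 13.91 TPM in knockouts (a log2 fold change of −0.52 with a limma adjusted *P* of 0.17), and *Grk3* at 7.58 to 9.47 and 4.31 to 6.26 TPM (−0.61, adjusted *P* 0.23). *Grk2* (−0.01), *Grk6* (−0.27) and *Arrb1* (β-arrestin 1, 0.06) overlapped between groups. Of the 10 genes for catecholamine synthesis and clearance, 6 were tested and 0 called, with a median of 0.09. *Th*, *Ddc* and *Dbh*, the enzymes that make noradrenaline, and *Slc6a2*, its neuronal transporter, were under the filter, with *Dbh* listed at 0 in 5 of 6 aortas. The clearance enzymes *Maob* (0.08) and *Maoa* (0.24) and the transporter *Slc22a3* (0.10) were measured, and of these 3 only *Maoa* did not overlap between groups, at 9.34 to 10.30 TPM in controls and 10.91 to 12.50 TPM in knockouts. Every knockout aorta was above every control for 4.08% of all genes tested as deposited, and for 11% after median ratio rescaling.

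A promoter peak of PRDM16, by the 2 kb rule, was present at 11 of 13 genes of the Gq/11 arm, 2 of 5 of the Gi/o arm, 11 of 16 of the Gs and cAMP arm, 3 of 6 for desensitization, 10 of 14 for myosin light chain phosphorylation and 2 of 10 for catecholamines. *Adcy3* and *Grk5* had one, and *Adcy1* and *Grk3* had none. Of the smooth muscle markers 0 of 8 and of the brown adipocyte markers 1 of 6 (*Cidea*) had one. These shares cover all genes of each list, tested for expression or not. They stand beside 29.1% of all protein-coding genes and 43.7% of those tested for expression.

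**Figure D5:**
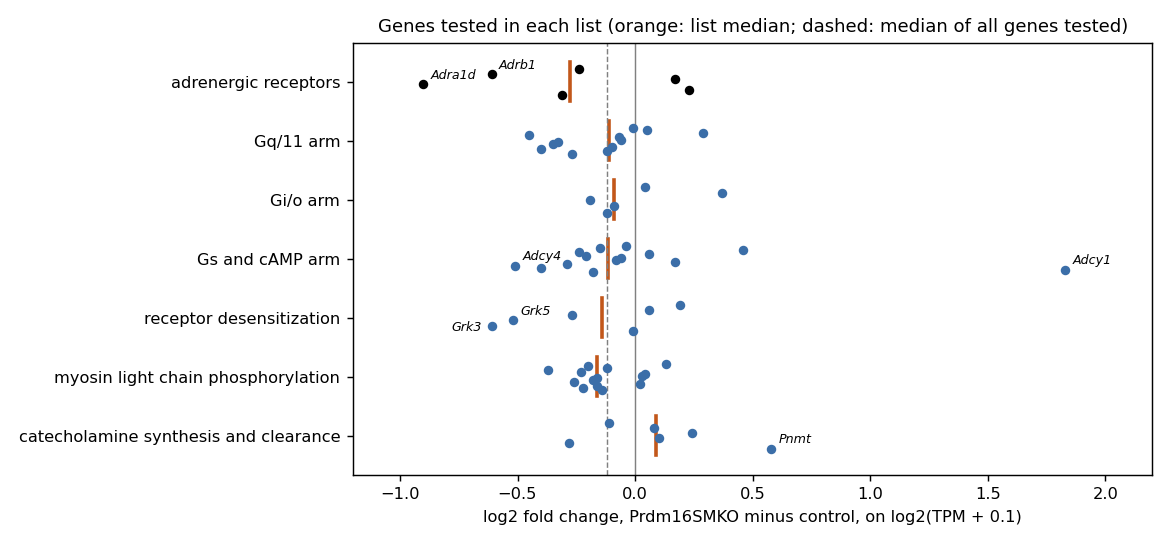
Log2 fold change, Prdm16SMKO minus control on log2(TPM + 0.1), of each gene tested in the receptor family and 6 signalling lists (points), with the list medians (orange) and the median of all genes tested (dashed). List medians lie between −0.28 and 0.09, and *Adcy1* at 1.83 and *Adra1d* at −0.90 lie farthest out.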

How the data were processed

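RNA-Seq of 6 thoracic aortas (3 control, 3 Prdm16SMKO, grouped by the labels' titles) and peak lists of 2 anti-Flag ChIP-Seq libraries were used, of 10 samples in all, and 2 IgG samples are not analysed here. The authors deposited TPM from poly(A)-selected libraries, with 1 column per aorta and 0 per-sample columns left unused. The submitters' processing notes list cutadapt 2.3, STAR 2.7.8a and RSEM 1.3.3, without their roles, and GRCm38. Whether counting used strand is not stated, so reads of *Adra1d* and *Adrb3* cannot be told apart from those of their antisense partners Gm14285 (at most 2.68 TPM) and Gm45470 (at most 0.53 TPM). TPM are not counts, so no count test or counting interval was used.

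For ChIP-Seq the authors aligned to GRCm38 by bowtie2, and MACS2 (q of 0.01 or less) gave 1 peak list per library. The MACS2 control is not given in the sources used here. The deposited fold enrichment is a ratio over the background that MACS2 set at the summit, which was the same value for 61.1% of peaks. The deposited −log10 q and −log10 p were taken unchanged. The deposited integer score is derived from −log10 q and was not used. Summit fragments were recomputed from the deposited fold and p, which gave whole numbers within 0.01 for 11257 peaks (99.9%). They cover counting error only.

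Differential expression was fitted with limma 3.58.1 (R 4.3.3), on log2(TPM + 0.1) with a mean-variance trend. The 15668 genes tested averaged at least 0.5 TPM, with Benjamini-Hochberg adjusted *P* values at 0.05. On simulated data for this comparison over 15668 genes, 41 of 100 genes changed 2-fold and 74 of 100 changed 4-fold were recovered, with 4 false calls. Fold changes on this scale understate those of low genes. Single values were compared by exact permutation tests (scipy 1.17.1), and peaks and sequences were read with pandas 2.3.3 and pysam 0.24.0.

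The members and gene lists were chosen with earlier results of these data known. Named genes were the receptors, *Prdm16*, any called gene of a signalling list, the 4 most abundant genes of each signalling list, the 2 most abundant of each marker list and the 5 genes most like *Adra1d*. *Adcy1*, *Adcy3*, *Grk3*, *Gnaq*, *Plcb1*, *Ppp1cb*, *Arhgef11*, *Rhoa*, *Ucp1*, *Elovl3*, *Dio2*, *Ppargc1a*, *Vwf*, *Kdr*, *Cdh5*, *Tie1*, *Des*, *Nppa*, *Myh4*, *Th*, *Ddc*, *Dbh* and *Slc6a2* were named after their values were seen. *Adra1a*, *Adra1d* and *Adrb3* have no entry in the promoter table. One gene of the family and 1 gene of a signalling list are not reported here. Alternatives for expression were other pseudocounts, filters and scalings, the replicate block, leaving out each aorta, and the brown adipocyte score as a covariate. For peaks they were other windows, q thresholds and gene models. The covariate and the GENCODE gene models were added after the data were seen.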

Additional observations from a re-analysis of the deposited data

How the results depend on the processing

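No receptor passed 0.05 under any alternative without a covariate. *Adra1d* kept its direction in all 16 alternatives, with log2 fold changes from −1.10 to −0.70 and adjusted *P* values by limma from 0.0286 to 0.414. With the brown adipocyte score as a covariate, added after the data were seen, 1 receptor was called, *Adra1d* at −0.96. The count of all genes called, 168, was 110 without a filter, 413 after median ratio rescaling, 392 after quantile normalization, 279 without mitochondrial genes, 48 without a mean-variance trend and 613 with the brown adipocyte covariate, and lay between 29 (without control aorta 2) and 92 (without Prdm16SMKO aorta 3) with 1 aorta left out, so every aorta left out lowered the count by more than 1.5 times. The share called higher was 36.3% as deposited, 48.4% after median ratio rescaling, 48.2% after quantile normalization, 50% without a trend and 19.1% with the covariate, and from 31.6% (without Prdm16SMKO aorta 2) to 59% (without control aorta 1) with 1 aorta left out (56.5% without Prdm16SMKO aorta 3). Genes of the signalling lists called numbered 2 after median ratio rescaling and 2 after quantile normalization (*Adcy1* and *Gnao1*), 1 without mitochondrial genes and 1 without a trend (*Adcy1*), and 2 with the covariate (*Adcy1* and *Itpr1*). The cause of these shifts was not tested. Leaving out 1 aorta turned the sign of *Adra1a* (0.12 without control aorta 2, 0.16 without Prdm16SMKO aorta 2), *Adra2a* (−0.07 without control aorta 2, −0.86 without Prdm16SMKO aorta 1) and *Adrb3* (0.09 without control aorta 2, 0.23 without Prdm16SMKO aorta 2). With 1 aorta left out, log2 fold changes ranged from −0.88 to 0.16 for *Adra1a*, from −0.86 to 1.08 for *Adra2a*, from −0.68 to 0.23 for *Adrb3*, from 0.03 (without control aorta 3) to 0.53 (without control aorta 1) for *Adra1b* and from −0.97 (without Prdm16SMKO aorta 3) to −0.31 (without Prdm16SMKO aorta 2) for *Adrb1*. With a pseudocount of 1, *Adrb1* was at −0.34, *Adra1a* at −0.18, *Adra1b* at 0.15 and *Adra2a* at 0.27, and with 0.01 *Adra2a* was at 0.08.

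Aortas of the same replicate number were not paired, as their deviations from the group means correlated at −0.0246, −0.07 and −0.009. With the replicate block 184 genes were called, and *Adra1d* was at −0.90 with an adjusted *P* of 0.0508. Promoters defined as 1 kb before and 100 bp after the TSS held the centre of 0 receptor peaks. This count rests on the centre, as the summit of the *Adra1d* peak, 42 bp upstream of the TSS, lay inside that window. TPM hide the depth behind each value, and receptors below 1 TPM rest on few reads.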
